A study of Mus musculus with 72 samples.

Results

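The serotonin receptor genes Htr1a, Htr1b, Htr1d, Htr1f, Htr2a, Htr2c, Htr5b and Htr7 were followed across single Pet1 neurons of the mouse dorsal raphe (DR). These 8 genes were chosen by name, with earlier results of these data known. All 8 were among the 17231 genes of the droplet (10X) table and the 24256 genes of the table of manually sorted cells. Pet1 (Fev) encodes the transcription factor that marks the serotonergic lineage, and Pet1-Flpe driven reporters labelled the cells. The 10X table pooled 2350 neurons from the whole DR of animals with a mean age of 65.5 days (Pet1::Flpe+/- with hM3Dq+/+) or 59 days (En1::cre+/- with Pet1::Flpe+/- and RC::FrePe+/-). Its cells name neither the run nor the animal, so they were treated as 1 sample. A barcode ending split the cells into 869 of ending 1 and 1481 of ending 2, called barcode sets 1 and 2 here, which shared 0 barcodes.

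The 70 manually sorted cells came from animals that all carried Pet1::Flpe+/- and RC::FrePe+/-, so that a cell was labelled where a Cre driver and Pet1-Flpe had both been active. With Sert::cre+/-, 10 cells came from the dorsolateral DR (5 at 63 days and 5 at 90 days), 9 from the dorsomedial DR (6 at 63 days and 3 at 90 days), 8 from the ventromedial DR (4 at 63 days and 4 at 90 days) and 6 from the caudal DR, all at 63 days. With P2ry1::cre+/-, 10 caudal cells were taken between 62 and 74 days. With Npy2r::cre+/-, 10 cells were caudal and 9 rostral, at 77 or 87 days. With Crh::cre+/-, 8 rostral cells were taken at 83 or 119 days. The reporters record that a driver was active at any time in a cell's history, which is not the same as present expression of the driver gene. All sorted groups but the Sert-cre caudal cells held cells of more than 1 age and so of more than 1 animal. Since the labels name no animal, cells could not be assigned to animals, each sorted group was treated as 1 sample, and no test between groups was made in either data set. Intervals given here are 95% intervals that cover counting error only and not the spread between animals.

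Serotonin acts on the neurons that release it as well as on their targets. HTR1A sits on the cell body and dendrites of raphe neurons and, through inhibitory G proteins and GIRK potassium channels, slows their firing, while HTR1B and HTR1D act mainly on axon terminals, where they reduce release. HTR1F also couples to inhibitory G proteins. HTR2A and HTR2C act through Gq and phospholipase C, and HTR7 through Gs and adenylyl cyclase. Htr5b encodes a receptor that is expressed in rodents.

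Markers of the labelled lineage were counted first. All 2350 droplet cells held a Fev UMI, which the authors' exclusion of cells with absent or low Fev had fixed, so it is no check. Of these cells, 2339 held a UMI of Tph2 (the enzyme that makes serotonin in the brain) and 2309 one of Slc6a4 (the serotonin transporter), and all 70 sorted cells held Fev and Tph2 reads. The droplet cells held 12320 to 134079 UMIs each (median 59646), and reads per sorted cell ran from 756872 to 7664103. The barcode sets differed in sex transcripts, since 830 of 869 cells of set 1 and 0 cells of set 2 held 3 or more Xist UMIs, so receptor ratios were also computed within each set. Summed levels of marker lists for astrocytes, microglia, vessels, blood, dopamine neurons (Th; Slc6a3 was not used in the 10X cells) and glutamate neurons (Slc17a6) were at or below 4.11 CPM in each of the 6 groups of 10X cells described next. The GABA neuron marker Slc32a1 reached 6.39 CPM and the oligodendrocyte list 69.0 CPM, each highest in the cells low in Tph2. Gene levels in 10X cells are CPM, the UMIs of a gene summed over the cells of a group and scaled to the summed total of all genes.

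Droplet cells were divided by 4 genes that mark transmitter phenotypes. Met encodes a receptor tyrosine kinase, Gad2 an enzyme of GABA synthesis and Slc17a8 the vesicular glutamate transporter VGLUT3. Cells with 3 or more Met UMIs formed the Met group (93 cells), and the remaining cells with Tph2 under 500 CPM formed the low-Tph2 group (131 cells). The others were divided by 3 or more UMIs of Gad2 and Slc17a8 into cells with both (256), with Gad2 only (872), with Slc17a8 only (684) and with neither (314). Median UMIs per cell were 46273 in the Met group and 27329 in the low-Tph2 group, against 51410 to 64277 in the other 4. Most Met cells (91 of 93) and low-Tph2 cells (121 of 131) also held 3 or more Slc17a8 UMIs. These groups are ranges of measured counts rather than cell types, and 32 cells held 2 to 4 Met UMIs, 283 held 2 to 4 Gad2 UMIs, 220 held 2 to 4 Slc17a8 UMIs and 18 had Tph2 within 100 CPM of the limit.

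Htr1a, the somatodendritic autoreceptor gene, was the most widely detected member. A UMI was found in 2155 of 2350 droplet cells (91.7%), and reads in 66 of 70 sorted cells. It lies at chr13:105443639-105448122 on the + strand (GRCm38, ENSMUSG00000021721.5) and is made of 1 exon. Htr1a stood at 97.6 CPM (92.8 to 102) in cells with both Gad2 and Slc17a8, 94.4 CPM (91.8 to 97.1) in Gad2-only cells, 91.4 CPM (86.7 to 96.3) in cells with neither and 88.5 CPM (85.7 to 91.4) in Slc17a8-only cells. Neighbours in this order had overlapping intervals. Below them came Met cells at 52.6 CPM (46.0 to 59.8) and low-Tph2 cells at 25.6 CPM (20.7 to 31.2), whose intervals overlapped with no other group. The level in the low-Tph2 cells differed between barcode sets, at 14.2 CPM (9.19 to 21.0) in set 1 and 35.6 CPM (27.8 to 44.9) in set 2, both under every other group of their set. When each cell was thinned to 20000 UMIs, Htr1a was detected in 58.2% of Met cells, 31.7% of low-Tph2 cells and 77.1 to 80.8% of cells in the other groups. Before thinning these shares were 84.9%, 35.9% and 93.4 to 97.0%.

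**Figure D1:**
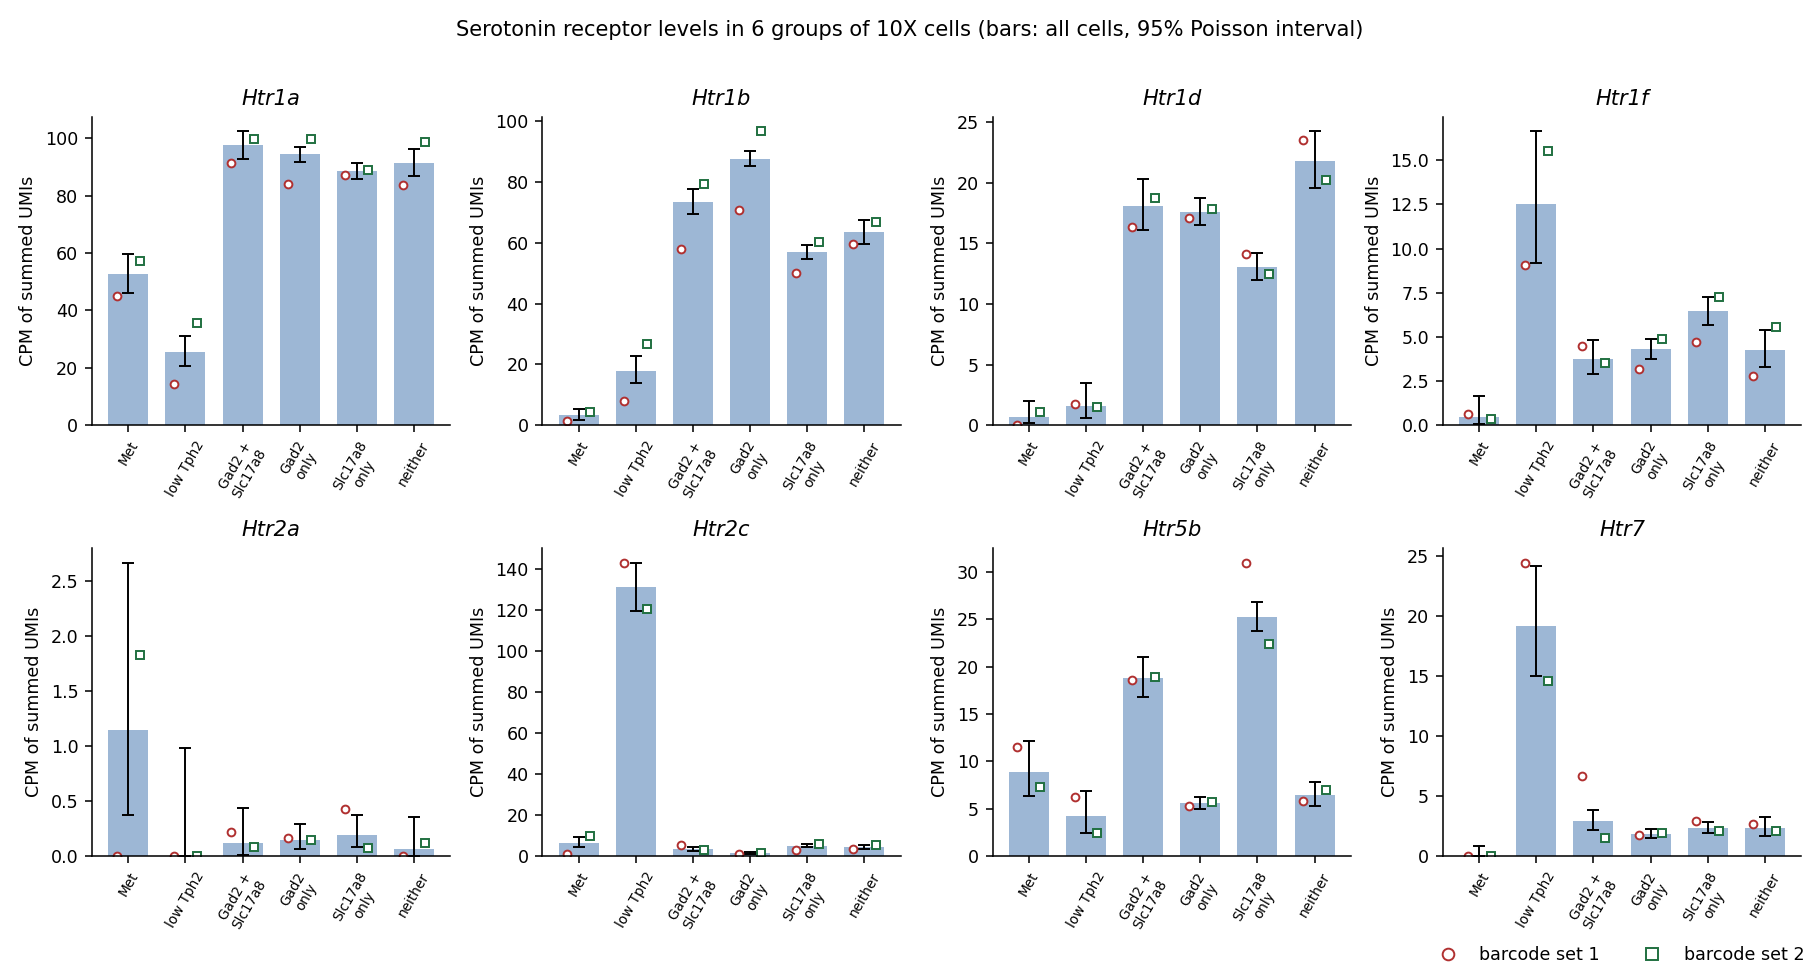
Level of each of the 8 receptor genes (CPM of summed UMIs, 1 panel per gene, each with its own linear axis) in the 6 groups of 10X cells. Bars with 95% Poisson intervals show all cells and the points the barcode sets; Htr1b stood at 3.20 CPM in Met cells against 56.8 to 87.7 CPM in the 4 groups with high Tph2, and Htr2c at 131 CPM in low-Tph2 cells.

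The terminal autoreceptor genes Htr1b and Htr1d were close to absent from the Met cells. Htr1b lies at chr9:81628291-81633828 on the - strand (ENSMUSG00000049511.5) and Htr1d at chr4:136423524-136444398 on the + strand (ENSMUSG00000070687.11). Htr1b had 14 UMIs in 7 of the 93 Met cells, or 3.20 CPM (1.75 to 5.37). The low-Tph2 cells held Htr1b at 17.8 CPM (13.8 to 22.7), while the other groups ran from 56.8 CPM (54.6 to 59.2) in Slc17a8-only cells through 63.4 CPM (59.6 to 67.5) in cells with neither and 73.6 CPM (69.5 to 77.9) in cells with both to 87.7 CPM (85.2 to 90.3) in Gad2-only cells. No intervals of Htr1b overlapped between any pair of the 6 groups. Htr1d was lower throughout, with 3 UMIs in 2 Met cells (0.686 CPM, 0.141 to 2.00), 6 UMIs in 6 low-Tph2 cells (1.60 CPM, 0.586 to 3.48) and 13.0 to 21.8 CPM elsewhere. Its highest level was in cells with neither Gad2 nor Slc17a8, at 21.8 CPM (19.6 to 24.3), and the intervals of the Met and low-Tph2 groups overlapped. In Gad2-only cells, Htr1b was 70.7 CPM (67.0 to 74.7) in barcode set 1 and 96.7 CPM (93.5 to 100.1) in set 2, whereas Htr1d was 17.1 CPM (15.3 to 19.1) and 17.8 CPM (16.5 to 19.3).

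Along the number of Met UMIs the autoreceptors parted further. Cells with 0 Met UMIs (2211 cells) held Htr1b at 71.6 CPM, those with 1 or 2 (46 cells) at 45.8 CPM, those with 3 to 9 (62 cells) at 4.67 CPM and those with 10 or more (31 cells) at 0.629 CPM, which rests on 1 UMI. Htr1a over the same bins was 91.1, 62.1, 61.4 and 37.1 CPM. Gad2 went the other way with Htr1b. Among cells under 3 Slc17a8 UMIs, outside the Met and low-Tph2 groups, Htr1b was 59.8 CPM (55.0 to 64.8) with 0 Gad2 UMIs, 69.6, 78.4 and 83.5 CPM in the next bins and 113 CPM (107 to 119) with 20 or more.

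The sequences upstream of the 3 autoreceptor genes are shown with a motif of the ETS family, to which the lineage factor FEV belongs. Whether FEV acts on these genes was not tested. They are RefSeq promoter sequences on GRCm38.p6, read 5′ to 3′ on the gene's strand. Each ends at the start that RefSeq gives, or at the start in the GENCODE annotation where that comes earlier, so the Htr1b window stops 4 bases short of the GENCODE start. The printed sequences have capitals at each CGGAAG, a core sequence that ETS factors bind.
Htr1a, chr13:105443443-105443638, + strand: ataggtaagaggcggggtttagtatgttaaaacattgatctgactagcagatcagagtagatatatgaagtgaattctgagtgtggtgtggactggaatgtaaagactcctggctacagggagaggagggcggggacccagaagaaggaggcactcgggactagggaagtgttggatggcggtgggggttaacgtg
Htr1b, chr9:81633833-81634082, - strand: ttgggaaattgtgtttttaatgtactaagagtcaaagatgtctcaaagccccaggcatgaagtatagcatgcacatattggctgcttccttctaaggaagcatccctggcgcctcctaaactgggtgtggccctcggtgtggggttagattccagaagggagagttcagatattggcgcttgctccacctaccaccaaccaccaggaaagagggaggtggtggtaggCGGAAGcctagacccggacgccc
Htr1d, chr4:136423274-136423523, + strand: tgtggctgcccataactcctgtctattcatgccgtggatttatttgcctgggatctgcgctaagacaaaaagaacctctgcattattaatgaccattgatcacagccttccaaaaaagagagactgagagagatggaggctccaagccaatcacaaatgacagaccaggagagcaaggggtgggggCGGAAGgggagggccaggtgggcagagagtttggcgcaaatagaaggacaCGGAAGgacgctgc
CGGAAG was searched on both strands and found in the Htr1b window 23 bases before its end, and at 64 and 14 bases before the end of the Htr1d window. CGGAAG was not among the letters of the Htr1a window, which is 196 bases long. Other sequences that ETS factors bind were not searched in any window. Of 32851 promoter windows, 13.6% held this motif at 250 bases and 11.9% at 196 bases. A GATA core (AGATAA), searched on both strands too, was found in the Htr1f window of 180 bases, and 6.91% of windows of that length held it. A homeodomain core (TAATTA), searched likewise, was found in the Htr2a window of 216 bases, against 4.07% of windows of that length. The 3 motifs do not overlap one another in these windows. Promoter entries were matched for 7 of the 8 members, and the Htr2c window of 250 bases and the Htr7 window of 103 bases held none of the 3 motifs. A match describes letters only and says nothing of binding.

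Met cells differed from the groups with high Tph2 in the combination of autoreceptors as well. After thinning, 53.8% of Met cells (49 of 91, 43.1 to 64.4%) held Htr1a alone of the 3 genes, against 11.3% of Gad2-only cells (9.30 to 13.6%) and 22.6% of Slc17a8-only cells (19.5 to 25.9%). In low-Tph2 cells this share was 19.2% (12.6 to 27.4%). Htr1a and Htr1b were found together in 3.30% of Met cells (0.685 to 9.33%), 64.1% of Gad2-only cells (60.8 to 67.3%) and 48.2% of Slc17a8-only cells (44.4 to 52.1%). In low-Tph2 cells the pair was found in 11.7% (6.53 to 18.8%), an interval that overlapped that of Met cells. None of the 3 was detected in 40.7% of Met cells, 55.8% of low-Tph2 cells and 3.82 to 8.70% of the other groups. All 3 were found in 0 of 91 thinned Met cells, in 2 of 120 low-Tph2 cells and in 10.2 to 17.8% of the groups with high Tph2. Before thinning, 76.3% of Met cells held Htr1a alone, against 1.72 to 7.60% of the groups with high Tph2, and all 3 genes were found in 1 of 93 Met cells and in 40.8 to 53.2% of those groups. Of the 131 low-Tph2 cells, 21.4% then held Htr1a alone and 3 cells held all 3 genes. Across all cells, Pearson's r of log2(CPM + 1) between Htr1a and Htr1b was 0.36 over 2350 cells, and it was 0.18 within the 2126 cells outside the Met and low-Tph2 groups, which is weak. The cells share libraries and a range of depths.

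Counted over all 8 genes, a thinned Met cell held UMIs of 0.956 ± 0.788 receptors (SD over 91 cells, median 1), and 28.6% held none. Low-Tph2 cells held 1.88 ± 1.05 (SD over 120 cells), and the other groups had means between 2.04 and 2.22. Before thinning, the mean was 1.51 ± 0.916 in the 93 Met cells (median depth 46273 UMIs), 2.08 ± 1.10 in the 131 low-Tph2 cells (27329 UMIs) and 2.87 to 3.42 in the other groups. Met cells had the lowest mean both before and after thinning.

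**Figure D2:**
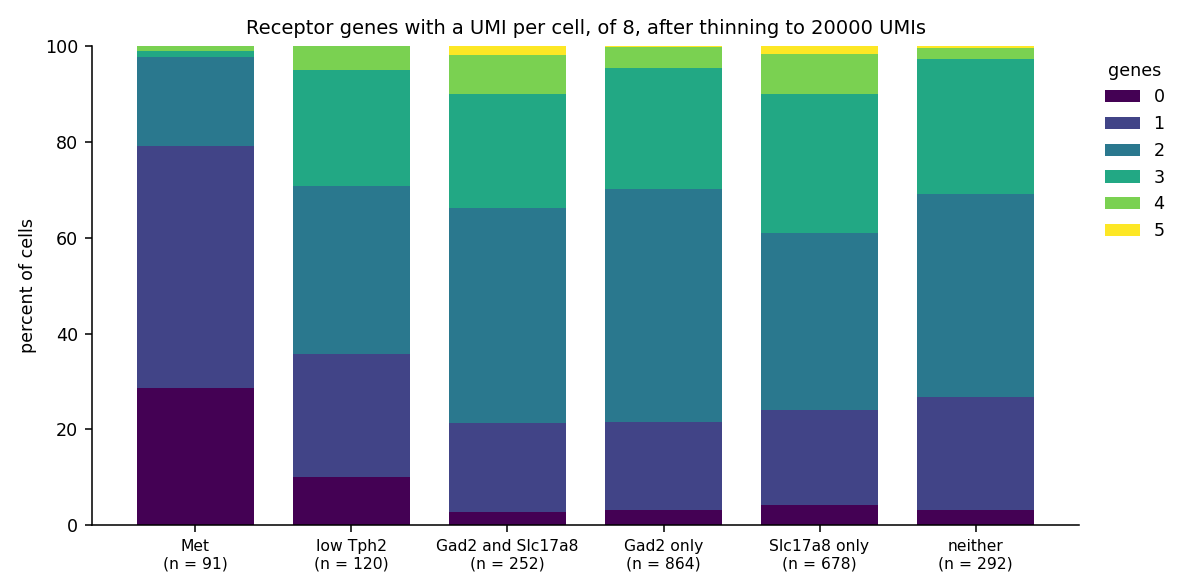
Percent of cells in each 10X group (stacked bars, 0 to 100%) that held UMIs of 0 to 5 of the 8 receptor genes after thinning to 20000 UMIs per cell. The band for 0 genes covers 28.6% of Met cells and 10.0% of low-Tph2 cells, against 2.78 to 4.28% of the other groups.

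Htr1f, on chromosome 16, showed another pattern. It was detected in 504 of 2350 droplet cells. The low-Tph2 cells had the highest level, 12.5 CPM (9.19 to 16.6), Slc17a8-only cells stood at 6.44 CPM (5.69 to 7.25), and the 3 remaining groups with high Tph2 lay between 3.77 and 4.30 CPM with overlapping intervals. Within Slc17a8-only cells, Htr1f was at 9.93 CPM (8.01 to 12.2) in cells with 3 to 9 Slc17a8 UMIs, 7.37 CPM (5.93 to 9.06) with 10 to 19 and 4.31 CPM (3.46 to 5.31) with 20 or more, so the cells with the most Slc17a8 were near the remaining groups. Met cells held 2 Htr1f UMIs, or 0.457 CPM (0.0554 to 1.65).

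Htr5b, at chr1:121509842-121528465 on the - strand (ENSMUSG00000050534.8), was higher in cells with Slc17a8 than without among the groups with high Tph2. The Met and low-Tph2 groups were not split by Slc17a8. Slc17a8-only cells had 25.2 CPM (23.7 to 26.8) and cells with both Slc17a8 and Gad2 18.8 CPM (16.7 to 21.0), whereas Gad2-only cells had 5.61 CPM (5.00 to 6.29) and cells with neither 6.48 CPM (5.28 to 7.87). The intervals of the last pair overlapped. Met cells had 8.91 CPM of Htr5b (6.34 to 12.2), above the interval of Gad2-only cells and below those of the groups with Slc17a8 and high Tph2. Low-Tph2 cells had 4.26 CPM (2.43 to 6.92). Of these 2 groups, 91 of 93 and 121 of 131 cells held 3 or more Slc17a8 UMIs. Among cells under 3 Gad2 UMIs outside these 2 groups, Htr5b was 4.03 CPM (2.89 to 5.47) with 0 Slc17a8 UMIs, 11.1 CPM with 1 or 2, 20.9 CPM with 3 to 9, 26.5 CPM with 10 to 19 and 26.4 CPM (24.2 to 28.7) with 20 or more. Where cells held 3 or more Gad2 UMIs the same bins had 4.65, 8.24, 13.9, 15.2 and 27.9 CPM (23.6 to 32.7). The bins with the most Slc17a8 thus held about as much Htr5b with Gad2 as without, and their intervals overlapped.

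The Gq-coupled receptor genes were rare in most groups. Htr2a, on chromosome 14, had 24 UMIs in 23 of 2350 cells, too few for a comparison, of which 5 lay in 5 Met cells (1.14 CPM, 0.371 to 2.67) and 0 in low-Tph2 cells. The hM3Dq reporter allele carried by the animals of a 10X genotype is described as containing a piece of Htr2a, and whether any of these UMIs came from it was not tested. Htr2a had 10 UMIs in barcode set 1 and 14 in set 2, and the 5 in Met cells were all of set 2.

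Htr2c, on the X chromosome at 146962513-147197277 on the + strand (ENSMUSG00000041380.13), reached 131 CPM (120 to 143) in the low-Tph2 cells, where 90 of 131 cells held a UMI. Every other group lay between 1.63 CPM (1.31 to 2.01) in Gad2-only cells and 6.63 CPM (4.44 to 9.52) in Met cells, with a UMI in 7.11 to 16.1% of cells, although their depth was higher. After thinning, Htr2c was detected in 65.8% of low-Tph2 cells and in 2.89 to 8.79% of the other groups. The level in the low-Tph2 group was 143 CPM (126 to 162) in barcode set 1 and 121 CPM (106 to 137) in set 2. Of the 122 cells with 3 or more Htr2c UMIs, 71 were low-Tph2 cells and 27 Slc17a8-only cells. The table holds no cell type that should lack these receptors, so the part of free RNA in the shares was not tested.

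Htr2c was uneven within the low-Tph2 group. The 71 cells with 3 or more Htr2c UMIs held Htr1a at 15.9 CPM (10.8 to 22.6), Htr1b at 8.73 CPM (5.08 to 14.0) and Slc17a8 at 528 CPM (496 to 561). The 41 low-Tph2 cells with 0 Htr2c UMIs held Htr1a at 39.8 CPM (29.6 to 52.3), Htr1b at 27.3 CPM (19.0 to 37.9) and Slc17a8 at 366 CPM (334 to 401). Median depth was alike, at 26511 and 27489 UMIs, while the serotonin transporter gene Slc6a4 differed, at 81.6 CPM (69.4 to 95.3) and 480 CPM (443 to 520). A further 51 cells held 3 or more Htr2c UMIs but were not low in Tph2, which stood at 2090 CPM. In them Htr1a was at 88.1 CPM (76.8 to 101), near the level of the groups with high Tph2. Htr1b, at 41.2 CPM (33.6 to 50.0), and Htr1d, at 7.27 CPM (4.31 to 11.5), were below the 56.8 to 87.7 CPM and 13.0 to 21.8 CPM of those groups.

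Htr7, the Gs-coupled member, on chromosome 19, was also highest in the low-Tph2 cells, at 19.2 CPM (15.0 to 24.1) with a UMI in 44 of 131 cells. The groups with high Tph2 had 1.88 to 2.92 CPM, and their intervals overlapped. No Htr7 UMI was found in the 93 Met cells, where the floor of 3 UMIs over the group is 0.686 CPM. In low-Tph2 cells, Htr7 was found with and without Htr2c, at 20.5 CPM (14.7 to 28.0) in the cells with 3 or more Htr2c UMIs and 16.4 CPM (10.1 to 25.0) in those with 0.

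Along the Tph2 level, the pooled levels of Htr1a and Htr2c changed over several bins and not only at the limit of 500 CPM. Those of Htr1f and Htr7 changed mainly near 1000 CPM. A pooled level cannot tell a change within cells from a changing mix of cells with and without the gene. Among cells under 3 Met UMIs, the 33 cells below 50 CPM of Tph2 held Htr1a at 23.4 CPM (14.5 to 35.8) and the 51 cells between 50 and 150 CPM at 14.2 CPM (8.70 to 22.0). From there Htr1a was higher in each further bin, at 37.8, 59.6, 81.4, 89.1 and 100.1 CPM, up to 103 CPM (98.9 to 108) in the 290 cells with 4000 CPM or more. Htr2c had nearly the reverse order over the 8 bins, at 149, 166, 86.6, 21.1, 8.46, 2.47, 1.55 and 1.15 CPM (0.722 to 1.75). Htr1d had 0 UMIs in both bins below 150 CPM of Tph2 and 18.2 CPM (16.5 to 20.1) between 1000 and 2000 CPM, above which its intervals overlapped. Htr1f lay between 8.55 and 15.8 CPM in the 4 bins below 1000 CPM of Tph2 and between 4.50 and 4.98 CPM in the 4 above. Htr7 lay between 12.2 and 25.6 CPM below 1000 CPM, at 3.76 CPM (2.98 to 4.68) between 1000 and 2000 CPM and between 1.59 and 1.80 CPM above that. Depth moved with Tph2 too, and its part in these differences was not tested beyond the ratios from thinned cells given with the alternatives.

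**Figure D3:**
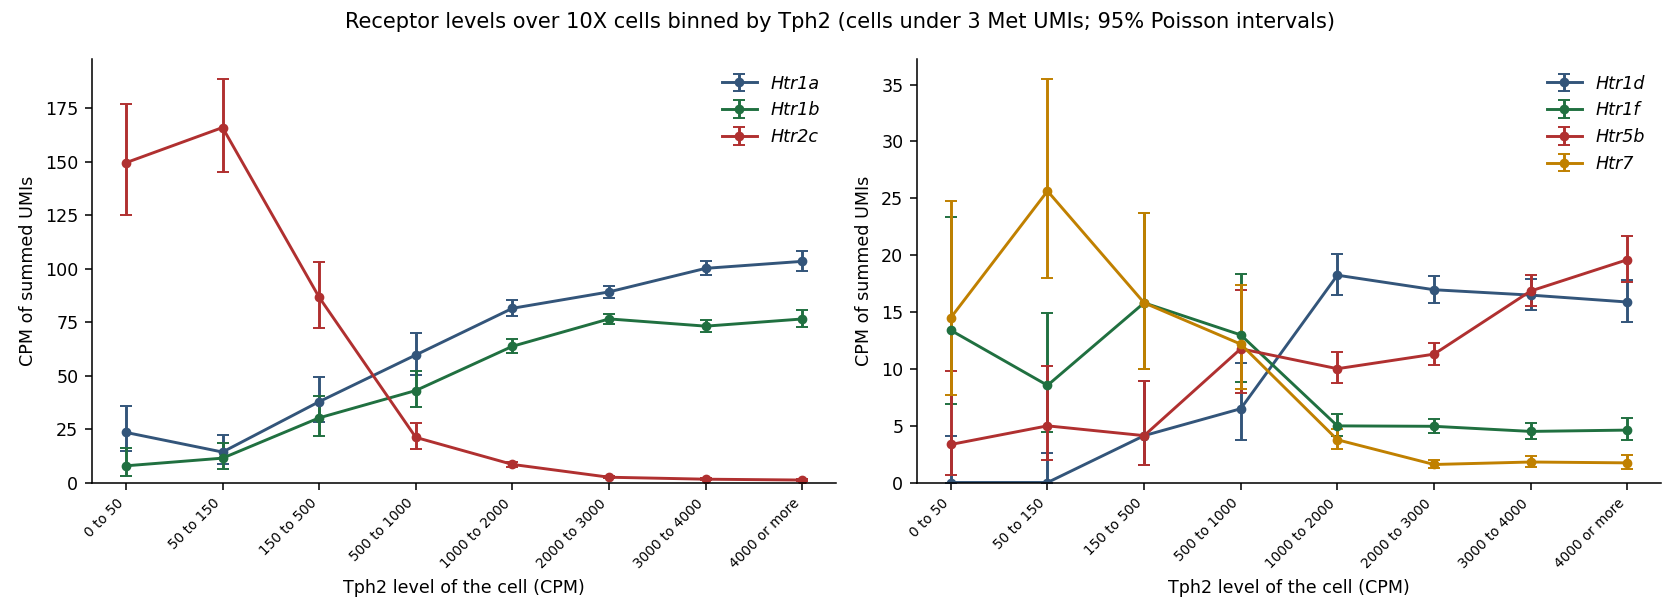
Levels of 7 receptor genes (CPM of summed UMIs, linear axes, lines join bins and bars are 95% Poisson intervals) over 8 bins of the Tph2 level of 10X cells with fewer than 3 Met UMIs. Htr1a went from 23.4 CPM in the lowest bin to 103 CPM in the highest, and Htr2c from 149 to 1.15 CPM.

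Set against all other cells, many members differed by more than 2-fold in the Met and low-Tph2 groups. Because the members were chosen with earlier results of these data known, the shares of all genes given beside them are a description and not a test. Of the 8 members, 7 passed the minimum of 200 UMIs (Htr2a did not), and each of these also had more than 200 UMIs outside the low-Tph2 cells. In Met cells, 4 of 7 were more than 2-fold lower (Htr1b, Htr1d, Htr1f and Htr7), against 9.93% of the 11906 genes compared, and 0 of 7 were more than 2-fold higher, against 2.99%. The log2 ratio was -4.47 (-5.35 to -3.73) for Htr1b, -4.57 (-6.84 to -3.02) for Htr1d and -3.49 (-6.54 to -1.63) for Htr1f. Htr7, at 0 UMIs, was 3.97-fold lower with 3 UMIs over the group as the floor, which is not a 95% limit. Htr1a (-0.79, -0.98 to -0.60) and Htr5b (-0.61, -1.11 to -0.16) were lower by less than 2-fold, and the interval of Htr2c (-0.09, -0.67 to 0.45) included 0. The ratio of Htr2c had opposite signs in the barcode sets, at -2.72 (-5.77 to -0.86) from 2 Met UMIs in set 1 and 0.60 (-0.01 to 1.16) from 27 in set 2, and this difference was not tested. The median of the 7 was -1.99, which is the bound of Htr7, and that of all genes compared was 0.04. With a minimum of 1 Met UMI the log2 ratio was -1.94 for Htr1b, -2.74 for Htr1d and -0.74 for Htr1f, the last within 2-fold. That of Htr1b was -5.60 (-8.65 to -3.75) in barcode set 1, from 2 Met UMIs, and -4.14 (-5.10 to -3.34) in set 2, from 12. Htr7 had 0 UMIs in the Met cells of each barcode set, and its bound was -0.99 in set 1 and -1.02 in set 2. The upper limits of the 95% intervals were -0.68 and -0.71, so neither set alone places it past 2-fold. Of 7 markers of serotonin neurons, Slc6a4 (-1.72) and Gch1 (-2.31) were also more than 2-fold lower in Met cells, the median of the 7 was -0.65, and their summed level was 5665 CPM against 9692 to 10707 CPM in the groups with high Tph2. The part of this in the receptor ratios was not tested.

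In low-Tph2 cells, 4 of 7 members were more than 2-fold lower (Htr1a, Htr1b, Htr1d and Htr5b), against 5.61% of genes, and the other 3 (Htr1f, Htr2c and Htr7) were more than 2-fold higher, against 7.86%. The log2 ratios were -1.83 (-2.14 to -1.55) for Htr1a, -1.98 (-2.35 to -1.63) for Htr1b, -3.34 (-4.78 to -2.21) for Htr1d and -1.69 (-2.50 to -0.99) for Htr5b. They were 1.39 (0.93 to 1.82) for Htr1f, 5.24 (5.05 to 5.42) for Htr2c and 3.15 (2.75 to 3.53) for Htr7. The median of the 7 was -1.69 and that of all genes 0.18. With a limit of 1000 CPM the ratio of Htr5b was -0.93, within 2-fold. The group was defined by Tph2, and 6 of 7 markers of serotonin neurons (all but Fev), Tph2 among them, were also more than 2-fold lower, and the part of this in the receptor ratios was not tested. The Met and low-Tph2 groups were each set against all other cells and share most of those.

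Gad2-only and Slc17a8-only cells differed less. Of the 7 members, 2 were more than 2-fold lower in Gad2-only cells, against 2.82% of genes, and 0 were more than 2-fold higher, against 2.79%. The log2 ratio of Gad2-only to Slc17a8-only cells was -2.17 (-2.36 to -1.98) for Htr5b and -1.63 (-2.01 to -1.26) for Htr2c. Within Slc17a8-only cells, Htr2c stood at 13.5 CPM (11.2 to 16.1) in the 182 cells with 3 to 9 Slc17a8 UMIs, 3.69 CPM with 10 to 19 and 2.08 CPM (1.51 to 2.81) in the 298 cells with 20 or more, the last within 2-fold of the 1.63 CPM of Gad2-only cells. Htr1b (0.63, 0.55 to 0.70), Htr1d (0.43, 0.28 to 0.59) and Htr1f (-0.58, -0.84 to -0.32) differed beyond counting error by less than 2-fold. The ratio of Htr1a was 0.09 (0.03 to 0.15), with opposite signs in the barcode sets (-0.052 in set 1 and 0.16 in set 2). That of Htr7 was -0.34 (-0.75 to 0.08), and it was -1.28, past 2-fold, in cells thinned to 20000 UMIs and grouped at a minimum of 1 UMI. The median of the 7 was -0.34 and that of all genes 0.01.

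**Figure D4:**
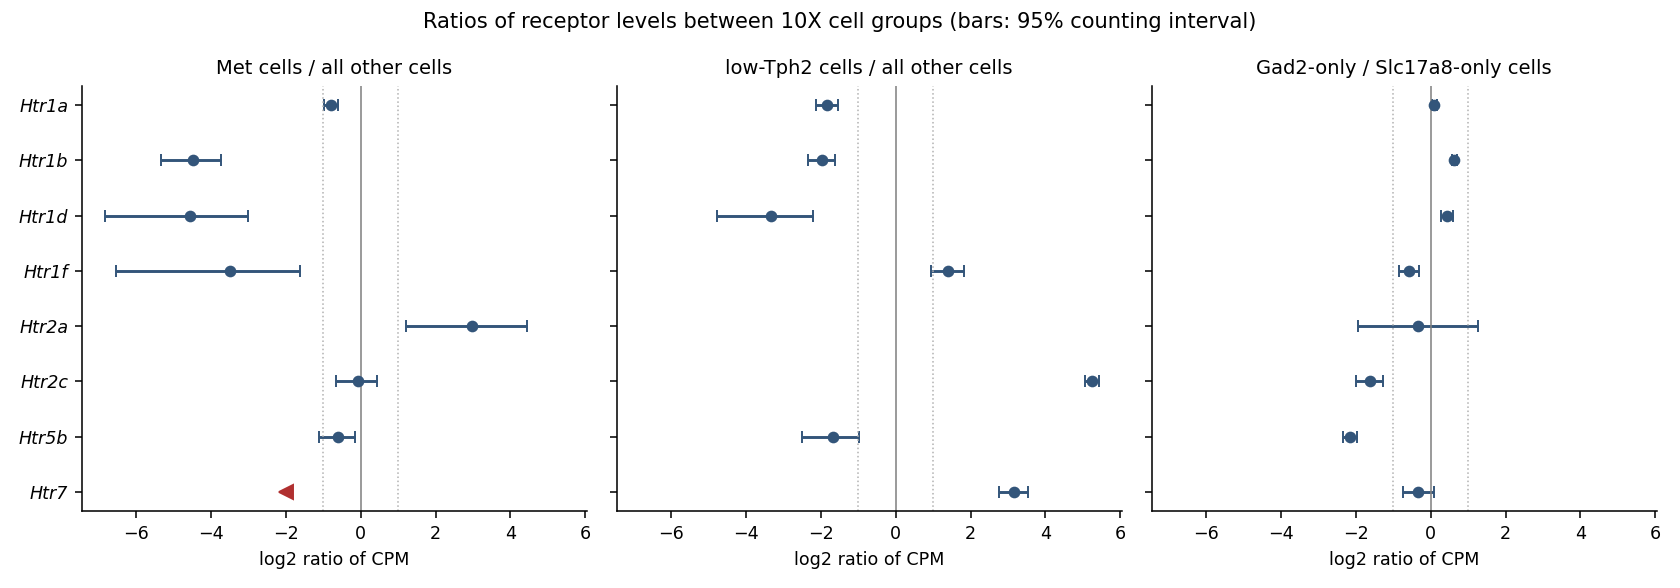
Log2 ratio of CPM (x axis) for the receptor genes in 3 comparisons of 10X cells, with 95% counting intervals as bars, dotted lines at a 2-fold difference, a triangle for the bound of Htr7 in Met cells, and Htr2a resting on 24 UMIs in all. Met cells lie to the left for Htr1b and Htr1d, and low-Tph2 cells lie to the left for 4 members and to the right for Htr1f, Htr2c and Htr7.

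Signalling partners of these receptors were counted in the same way. Of 18 genes listed for GIRK channels, G protein subunits, phospholipase C, RGS proteins, S100a10 (p11, which binds HTR1B) and Adarb1 (an enzyme that edits Htr2c RNA), 17 passed the UMI minimum. In Met cells 3 of the 17 were more than 2-fold lower and 1 higher, against the 9.93% and 2.99% of all genes. Kcnj3 and Kcnj6, which encode GIRK subunits, stood at 8.46 against 26.5 CPM (log2 ratio -1.65, -2.15 to -1.18) and 6.63 against 18.7 CPM (-1.49, -2.08 to -0.97), and S100a10 at 164 against 462 CPM (-1.49, -1.60 to -1.39). Plcb4, a phospholipase C of the Gq pathway, was higher, at 448 against 142 CPM (1.66, 1.60 to 1.73). In low-Tph2 cells, S100a10 was more than 2-fold lower (-1.28, -1.38 to -1.17) and Rgs4, which shortens G protein signals, more than 2-fold higher (1.92, 1.54 to 2.27). These were 1 of 17 in each direction, against 5.61% and 7.86% of genes. Plcb1 was the 1 partner more than 2-fold lower in Gad2-only than in Slc17a8-only cells (-2.74, -2.93 to -2.56; 2.82% of genes), and 0 were higher by that much (2.79% of genes). The median over the 17 partners was -0.07, -0.17 and 0.15 in the 3 comparisons, and that of all genes 0.04, 0.18 and 0.01. Of 6 other serotonin receptor genes, 5 were looked at in the 10X table, and Htr5a alone passed the minimum, with 834 UMIs and ratios within 2-fold in each comparison.

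In the sorted cells, full-length libraries allowed levels to be compared between genes per exonic length. The median over 70 cells was 18.6 CPM per kb for Htr1a, 15.4 for Htr5b, 4.22 for Htr1b and 3.76 for Htr1d, and 0 for the other 4 members. The mean gave another order, at 32.0 for Htr5b, 22.6 for Htr1a, 8.45 for Htr1d and 7.01 for Htr1b. It was 1.26 for Htr1f and 1.22 for Htr7, so the order of genes depends on the summary. Reads were found in 53 cells for Htr1b, 45 for Htr1d, 42 for Htr5b, 22 for Htr1f, 7 for Htr7, 5 for Htr2c and 1 for Htr2a. The exons of Htr1b overlap an antisense gene, D430036J16Rik, and since the library kit does not mark strand, reads of the pair cannot be told apart in these cells.

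Htr1a had reads in all 8 sorted groups. Values from here on are CPM per cell, given as the lowest, the median and the highest of a group. They were 0.262, 77.0 and 212 in Sert-cre dorsolateral cells, 7.83, 81.9 and 142 in dorsomedial cells, 41.0, 168 and 263 in ventromedial cells and 0, 44.6 and 145 in caudal cells. P2ry1-cre caudal cells had 0, 41.2 and 168, Npy2r-cre caudal cells 0, 94.3 and 335, Npy2r-cre rostral cells 66.9, 175 and 234, and Crh-cre rostral cells 49.0, 76.6 and 226. The medians were highest in the Npy2r-cre rostral and Sert-cre ventromedial cells and lowest in the caudal cells of Sert-cre and P2ry1-cre, and the ranges of all 8 groups overlapped.

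Htr1b and Htr1d had no reads in any of the 10 P2ry1-cre cells. With 55844539 reads summed over that group, 3 reads would be 0.0537 CPM. In the other 60 cells Htr1b was found in 53 and Htr1d in 45. Htr1b had 0, 56.1 and 332 CPM in dorsolateral, 0, 25.1 and 90.0 in dorsomedial, 0.360, 43.9 and 98.3 in ventromedial and 0, 16.2 and 31.8 in caudal Sert-cre cells. It had 0, 24.3 and 83.9 CPM in Npy2r-cre caudal, 0, 7.29 and 107 in Npy2r-cre rostral and 5.65, 20.9 and 124 in Crh-cre cells. Htr1d had the opposite order in the Npy2r-cre groups, with 0, 3.04 and 99.0 CPM in caudal cells and 6.04, 32.1 and 119 in rostral cells, where all 9 cells held reads. The Sert-cre caudal cells held little Htr1d (0, 0.299 and 6.12 CPM), whereas Crh-cre cells had 12.8, 44.6 and 79.0 CPM and dorsolateral cells 0, 44.7 and 159 CPM. Of the P2ry1-cre cells, 9 of 10 held Htr1a alone of the 3 autoreceptor genes, as did 1 of the other 60 cells, and all 3 genes were found in 39 of those 60. Met reads were present in 9 of the 10 P2ry1-cre cells, at a median of 86.8 CPM, and in 2 of the other 60.

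**Figure D5:**
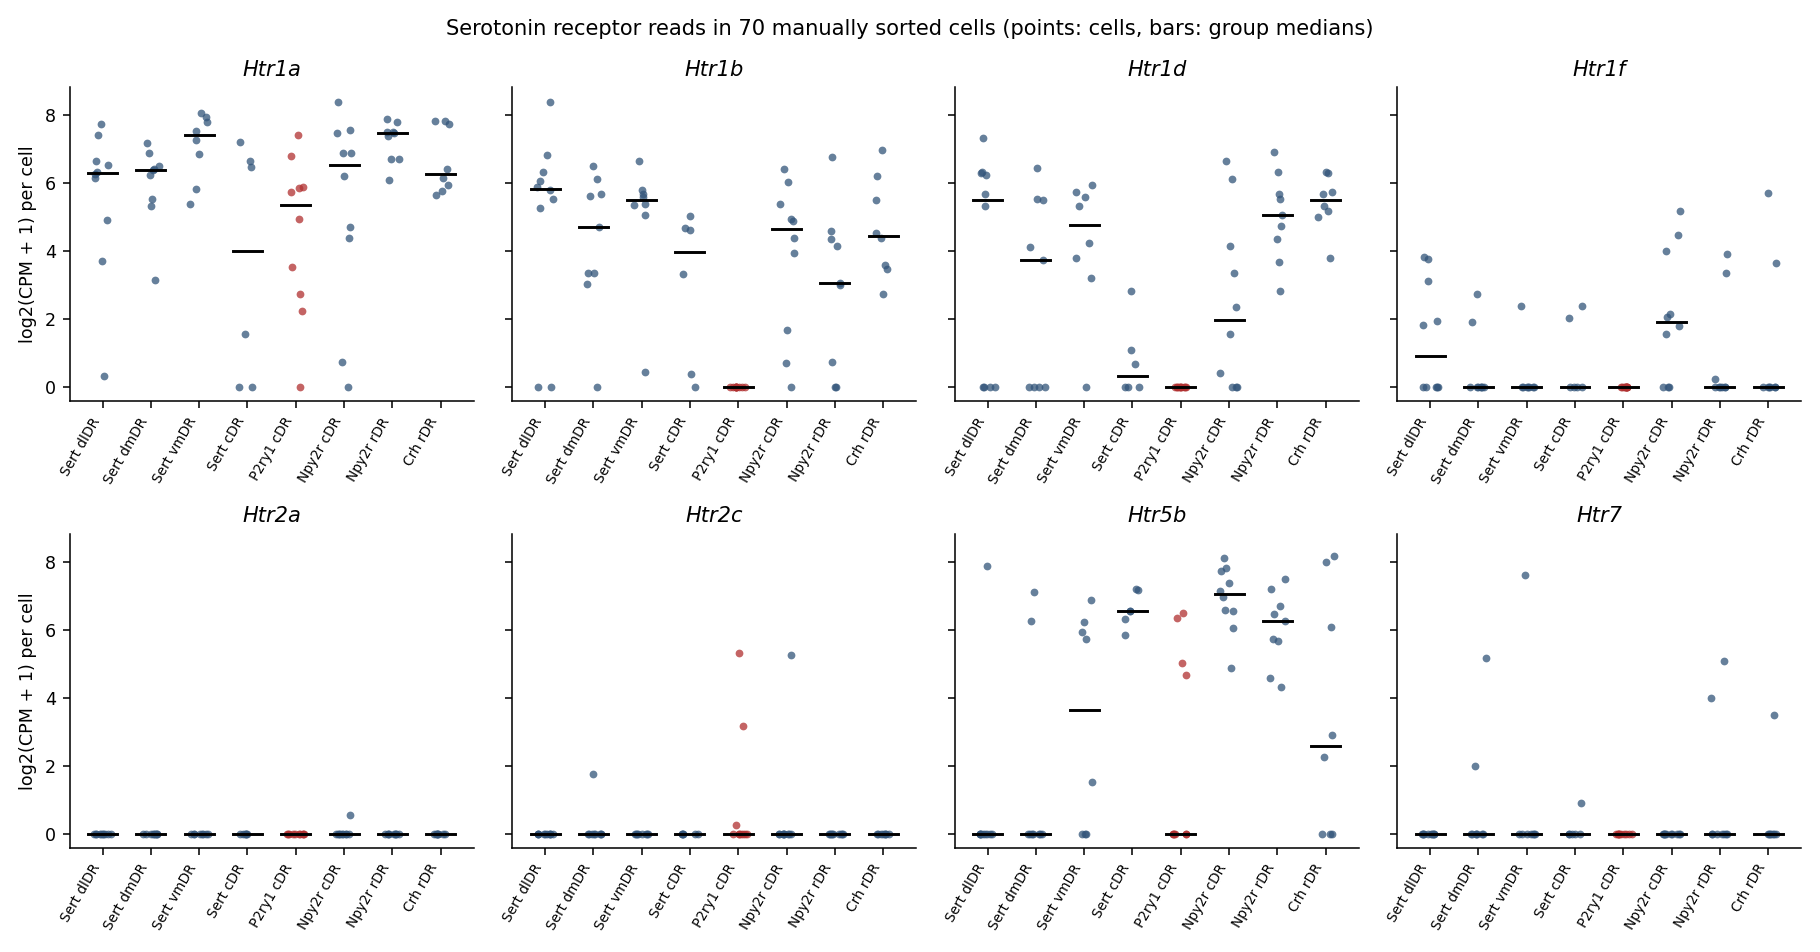
Reads of the 8 receptor genes in 70 sorted cells as log2(CPM + 1) (y axis, points are cells, bars are group medians), by the 8 groups on the x axis. All 10 P2ry1-cre cells lie at 0 for Htr1b, Htr1d, Htr1f, Htr2a and Htr7, and every Npy2r-cre cell lies above 0 for Htr5b.

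Htr5b split the sorted groups by place and driver. All 10 Npy2r-cre caudal cells (28.3, 131 and 271 CPM), all 9 Npy2r-cre rostral cells (18.8, 75.5 and 179 CPM) and all 6 Sert-cre caudal cells (56.1, 93.0 and 146 CPM) held reads. It was found in 5 of 8 ventromedial cells (0, 27.1 and 115 CPM), 5 of 8 Crh-cre cells (0, 5.10 and 284 CPM), 4 of 10 P2ry1-cre cells (up to 89.2 CPM), 2 of 9 dorsomedial cells (up to 136 CPM) and 1 of 10 dorsolateral cells (231 CPM). Htr5b was found in 35 of 46 cells with Slc17a8 reads (median 70.7 CPM) and in 7 of 24 cells without, but this differed by driver. All 14 Npy2r-cre cells with Slc17a8 reads and all 5 without held Htr5b, and among the rostral ones its median was 51.7 CPM with Slc17a8 reads and 81.1 CPM without. Among cells that were neither Npy2r-cre nor P2ry1-cre, Htr5b was found in 17 of 22 with Slc17a8 reads and in 2 of 19 without. All 10 P2ry1-cre cells held Slc17a8 reads, and 4 of them held Htr5b.

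The rarer members were seen in few sorted cells. Htr1f was found most often in Npy2r-cre caudal cells (7 of 10, up to 35.0 CPM) and in dorsolateral cells (5 of 10, up to 13.2 CPM), and its highest value, 51.5 CPM, was in a Crh-cre cell. Htr2c was found in 3 P2ry1-cre cells with 1, 49 and 156 reads, in 1 Npy2r-cre caudal cell with 146 reads and in 1 dorsomedial cell with 8 reads. These 5 cells had Tph2 between 3442 and 9176 CPM, and no sorted cell had Tph2 below 2720 CPM, a level that cannot be set against the limit of the 10X cells because CPM of reads and of UMIs differ in scale. Htr7 was found in 7 cells, with its highest value (193 CPM) in a ventromedial cell.

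Among caudal cells, 2 of the 7 members that passed a mean of 1 CPM were lower by more than 1 in mean log2(CPM + 1) in P2ry1-cre than in Sert-cre cells, against 31.9% of the 12287 genes compared, and 0 of 7 were higher by that much, against 8.78%. The lower members were Htr1b (mean log2(CPM + 1) of 0 against 3.01, difference -3.01) and Htr5b (2.25 against 6.60, difference -4.35). Their share is near that of all genes. The P2ry1-cre cells also had the fewest genes detected of any group, with a median of 7947 against 9269, and the median difference of all genes was -0.43, against -0.73 for the 7 members. Htr1a differed by 0.87, which took either sign across the ages of the P2ry1-cre cells (-1.41 at 63 days, 3.15 at 62 days, with 1 cell each). Astrocyte markers had a mean of 50.3 CPM in the Sert-cre caudal cells and 0 in the P2ry1-cre cells. The lists for oligodendrocytes (78.5 and 11.1 CPM), dopamine neurons (3.34 and 0 CPM), blood (3.29 and 0.0348 CPM) and microglia (1.05 and 0.0362 CPM) were higher in the Sert-cre caudal cells too, and the part of these lists in the result was not tested. The serotonin neuron markers Slc6a4 (-1.89) and Gch1 (-3.51) were lower by more than 1 in P2ry1-cre cells as well, with a median of -0.05 over the 7 markers, and their part was not tested either. Of 17 partners, whose median was -0.90, 6 were lower by more than 1 (Kcnj3, Kcnj9, Gnai2, Gnaq, S100a10 and Adarb1) and 2 higher (Plcb4 and Rgs17), with S100a10 at -3.02, Kcnj3 at -3.34 and Plcb4 at 4.19.

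Among Sert-cre cells of the same ages, dorsolateral cells had 2 of 7 members lower by more than 1 than ventromedial cells, against 17.7% of genes, and 1 of 7 higher, against 10.1%. Htr1a was lower by 1.48 (mean log2(CPM + 1) of 5.60 against 7.08), which was -1.14 at 63 days and -1.83 at 90 days. It differed by -0.90 without dorsolateral cell 4 and by -0.93 as the log2 ratio of mean CPM + 1, both within 1. Htr5b differed by -2.50 (0.79 against 3.28), at -1.47 and -3.53 in the same ages and at -0.69 as the ratio of means. Htr1f differed by 1.15 (1.45 against 0.30), and by 0.92 at 90 days alone. Htr1b differed by 0.01, with 0.80 at 63 days and -0.77 at 90 days. The median was -0.51 over the 7 members and -0.09 over all genes, and the ranges of dorsolateral and ventromedial cells overlapped for each of the members named. Marker lists went both ways, with astrocyte markers at 0.127 CPM in dorsolateral and 6.26 CPM in ventromedial cells and oligodendrocyte markers at 30.0 and 15.0 CPM. The median difference of the 7 serotonin neuron markers was 0.56, with 0 past 1 in either direction. The part of these lists was not tested.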

How the data were processed

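Single-cell RNA-seq of labelled DR Pet1 neurons was analysed from 2 deposited tables. For the 10X table, the authors deposited raw UMI counts. They had mapped reads to mm10, dropped rarely detected genes and excluded cells by gene number, glial, mitochondrial, ribosomal and Fev transcripts and total UMIs. For the sorted cells (SMART-Seq v4 libraries), the authors deposited unfiltered read counts per gene and cell. The submitters' processing notes name STAR 2.5.4, Cell Ranger 3.0.2 and R 3.5.3. UMIs collapse PCR copies, but sorted reads do not.

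The members and the lists were chosen with earlier results of these data known. They are the 8 receptor genes, 6 other serotonin receptor genes, 18 signalling partners and marker lists. The genes named are these and, for each member with a UMI in 10% or more of 10X cells, the 3 genes most alike over cell groups. Levels are summed UMIs scaled to CPM, with exact Poisson intervals. Shares have Clopper-Pearson intervals, and ratios have conditional exact intervals, at 95%. Shares were also computed after thinning each cell to 20000 UMIs, which left out 53 cells. Genes with 200 or more UMIs were compared, and a group at 0 was given a floor of 3 UMIs. Sorted cells were compared as mean log2(CPM + 1) over genes with a mean of 1 CPM or more. No p-value was computed, since neither table names an animal. Scrublet marked 5 of 869 and 7 of 1481 cells as doublets, and these were kept. Computation used Python 3.11.15, numpy 2.4.6, scipy 1.17.1, pandas 2.3.3 and matplotlib 3.10.9, and the ratios were tested on simulated data. Alternatives covered UMI and Tph2 limits, thinning, cell weighting, the denominator, barcode sets, doublets and the deepest cells, and, for sorted cells, the pseudocount, the summary, size factors, ages and each cell left out.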

Additional observations from a re-analysis of the deposited data

Results flagged for a closer look

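In 46 sets of a member and a sorted group, the highest and lowest cells were compared with the others of the group, and 17 sets had a highest cell that stood apart. Chance gives about 1 in 20 such sets where values are near normal. In most of these sets the other cells had no or few reads, so that rate does not apply to them. For Htr1b the standing cells had 332 CPM in Sert-cre dorsolateral and 107 CPM in Npy2r-cre rostral cells, and for Htr1d 159 CPM in Sert-cre dorsolateral and 6.12 CPM in Sert-cre caudal cells. For Htr1f they had 5.71 CPM in Sert-cre dorsomedial, 4.23 CPM in Sert-cre ventromedial and 51.5 CPM in Crh-cre cells. For Htr2a the value was 0.453 CPM in Npy2r-cre caudal cells, and for Htr2c 2.37 CPM in Sert-cre dorsomedial, 39.0 CPM in P2ry1-cre caudal and 36.8 CPM in Npy2r-cre caudal cells. Htr5b reached 231 CPM in 1 Sert-cre dorsolateral cell, the only cell of that group with reads. Htr7 reached 35.1 CPM in Sert-cre dorsomedial, 193 CPM in Sert-cre ventromedial, 0.876 CPM in Sert-cre caudal, 32.5 CPM in Npy2r-cre rostral and 10.1 CPM in Crh-cre cells.

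In 3 cases the barcode sets of the 10X table gave log2 ratios of opposite sign, and the difference between the sets was not tested. For Gad2-only against Slc17a8-only cells, Htr1a had -0.052 in barcode set 1 and 0.16 in set 2, and Htr2a, with few UMIs, had -1.40 and 1.02. For Met cells against all others, Htr2c had -2.72 in set 1, from 2 UMIs in Met cells, and 0.60 in set 2, from 27.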

How the results depend on the processing

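The counts of members past 2-fold in 10X cells stayed within 1.5 times the reported count under every alternative run. Over these alternatives the log2 ratio in Met cells ran from -5.67 to -1.94 for Htr1b, -5.79 to -2.74 for Htr1d and -4.02 to -0.74 for Htr1f, and in low-Tph2 cells from 4.80 to 5.78 for Htr2c. Members past 2-fold kept their direction in 153 of 153 such values and stayed past it in 150. In sorted cells 117 of 117 kept their direction and 109 stayed past 1.

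For P2ry1-cre against Sert-cre caudal cells, the log2 ratio of mean CPM + 1 gave 4 lower and 1 higher member. P2ry1-cre cells of 62, 66 and 74 days alone gave 1, 2 and 2 higher members. Leaving out each cell gave 0 to 1 higher members, with 1 without P2ry1-cre cells 5, 6 or 8 or Sert-cre caudal cells 3, 5 or 6. For dorsolateral against ventromedial cells, the ratio of means gave 1 lower member (Htr7, -4.65, from 1 ventromedial cell with reads, while Htr1a and Htr5b were within 1), cells of 90 days alone gave 4 lower and 0 higher, and a pseudocount of 10 CPM gave 0 higher. Leaving out each cell gave 1 to 4 lower members (1 without dorsolateral cell 4, 4 without ventromedial cell 3) and 0 to 1 higher (0 without dorsolateral cells 5, 8 or 10). The causes were not tested. With 6 to 10 cells a group and no animal named, the spread between animals could not be estimated for these differences. No paired analysis was possible because cell numbers only name cells and no test was made.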

Other observations

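For each member detected in at least 10% of 10X cells, the genes with the most similar levels were searched among 7868 genes over 12 points, the 6 cell groups in each barcode set, which share cells' libraries and depths. Htr1a was most like Slc6a4, the serotonin transporter gene (Pearson's r 0.99, and 0.52 over the 8 sorted groups), followed by Chmp2b (0.98 and 0.16) and Gmfb (0.98 and 0.47). Htr1b was most like Dach1 (0.99, and 0.90 over sorted groups), Scn9a, a sodium channel gene (0.99 and 0.92) and Nptxr (0.99 and 0.59). Htr1d was most like Syndig1l (0.98 and 0.88), Pacsin2 (0.98 and 0.47) and Fam184a (0.97 and 0.56), and Htr1f like Plcxd3 (0.96 and 0.50), 1500011K16Rik (0.95 and 0.87) and Cbln4 (0.94 and 0.54). For Htr2c the leading genes were Tmem107 (0.97 and 0.03), Crnde (0.97, with no value over sorted groups) and Ift74 (0.97 and -0.20), and for Htr7 F930015N05Rik (0.97 and 0.22), Ankrd9 (0.96 and -0.12) and Plekha7 (0.96 and 0.32). Htr5b was most like Sult4a1 (0.94 and 0.71), Smim13 (0.89 and 0.40) and Rab15 (0.89 and 0.37). These values describe the points and carry no test.

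Among the other serotonin receptor genes, Htr5a was read in 35 of 70 sorted cells, up to 52.6 CPM, with P2ry1-cre cells making up 5 of the 35. Htr6 was read in 12 of 70 cells, up to 56.0 CPM, and in 0 of the 10 P2ry1-cre cells. Htr2b, Htr3a, Htr3b and Htr4 were each read in 1 to 4 of 70 cells.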
